A study of Mus musculus with 16 samples.

Results

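The alcohol dehydrogenases, the aldehyde dehydrogenases and the aldo-keto reductases are the enzyme families of the liver that pass electrons between alcohols, aldehydes or ketones and a nicotinamide cofactor. They were taken as all genes on the array whose single symbol reads Adh, Aldh or Akr followed by a digit, with the probe set of highest mean kept per gene. This gave 42 of 18193 genes, of which 7 were Adh, 20 Aldh and 15 Akr genes. Expression was read on Affymetrix arrays in 16 liver samples of male C3H/HeJ mice, 1 array per sample, as log2 values after RMA normalization. Phenobarbital (0.05%, for 27 weeks per the sample labels) was given to the mice of 7 Ctnnb1-mutated tumours and of 3 matching non-tumour livers. Ctnnb1 encodes beta-catenin. Plain drinking water was given to the mice of 3 Ha-ras-mutated tumours and of 3 matching non-tumour livers, Ha-ras being a small GTPase. Per the series design, every mouse had a single injection of the liver carcinogen diethylnitrosamine (DEN), at 2 or 6 weeks after birth and at a dose of 10 or 90 µg/g. The non-tumour controls therefore carry that exposure as well. Which dose each animal had, which animals gave more than 1 sample and how the mutations were typed is not given in the labels, and other label texts describe a phenobarbital course of another length and route. Since nothing says that the samples of a group came from separate animals, the p-values measure the spread between these samples.

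Alcohol dehydrogenases oxidise ethanol, retinol and other alcohols to aldehydes, and aldehyde dehydrogenases oxidise aldehydes to acids. The aldehyde dehydrogenases act on acetaldehyde, retinal, fatty aldehydes, folate-bound formyl groups and the semialdehydes of amino acid breakdown. Aldo-keto reductases mostly run the other way and reduce aldehydes and ketones, among them steroids, bile acid precursors and reactive aldehydes from lipid peroxidation. Hepatocytes hold most of these enzymes, and some are set along the axis of the liver lobule from the portal to the central vein. Beta-catenin is known to maintain the programme of hepatocytes around the central vein. Phenobarbital activates the nuclear receptor CAR and raises many enzymes of drug metabolism.

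The arrays had medians of 5.03 to 5.10 (log2), and no pair of arrays was identical. Phenobarbital control 6 stood apart by RNA quality: its 3′ minus 5′ signal of Gapdh was 2.70 (log2), against −0.15 to 0.32 on the other 15 arrays. The mean of 7 hepatocyte markers lay between 13.7 and 14.3 (log2) on every array, and that of 5 cholangiocyte markers between 4.24 and 4.85. In these bulk samples fewer cells of a type and less RNA per cell cannot be told apart. Among the 42 genes, 13 lay below the median level of all genes on the array (6.21, log2), where a value may be background.

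Of the 42 genes, 3 rose and 5 fell in Ctnnb1 tumours against phenobarbital controls (limma, p adjusted by Benjamini-Hochberg over all 18193 genes, threshold 0.05). Over all genes 12% passed in this comparison, 6.07% upward and 5.97% downward. The median change of the 42 genes was 0.03, against −0.03 over all genes (log2). In Ha-ras tumours against untreated controls 4 of the 42 rose and 14 fell. Over all genes 13.5% passed here, 7.21% upward and 6.33% downward, and the median change was −0.24 for the 42 genes, against −0.04 for all genes. By family, the Ha-ras comparison held 12 of the 20 Aldh genes, 5 of the 15 Akr genes and 1 of the 7 Adh genes. In the Ctnnb1 comparison 4 Aldh, 3 Akr and 1 Adh genes passed. Both tumour types had a fall of Aldh1l1 and Aldh5a1, and Aldh1b1 fell in Ctnnb1 tumours and rose in Ha-ras tumours. The remaining calls were made in 1 comparison, 5 genes in Ctnnb1 and 15 in Ha-ras tumours, and 19 genes passed in neither. Without phenobarbital control 4 the Ctnnb1 comparison had 5 calls in place of 8. The Ha-ras comparison had 11 calls without untreated control 1, 10 without untreated control 2, 11 without untreated control 3 and 10 without Ha-ras tumour 2, in place of 18.

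**Figure D1:**
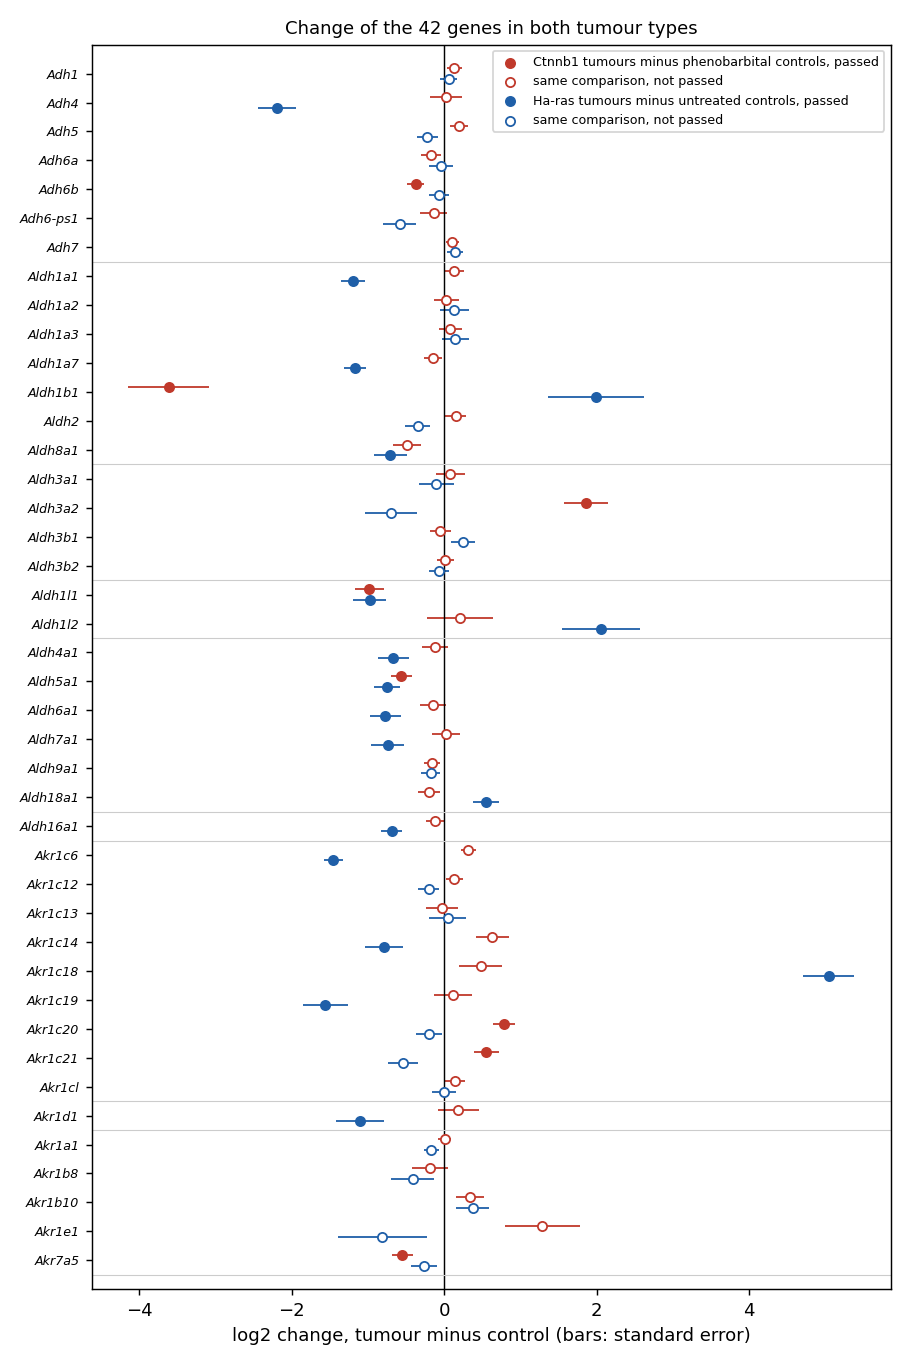
Log2 change of each of the 42 genes with its standard error (horizontal axis) in Ctnnb1 tumours against phenobarbital controls and in Ha-ras tumours against untreated controls, with genes grouped by family down the page and filled symbols for genes that passed. Akr1c18 lies at 5.04 in Ha-ras tumours and Aldh1b1 at −3.61 in Ctnnb1 tumours, while most Adh genes lie near 0 in both.

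Members at or above the median level held most of the calls. Of these 29 genes, 2 rose and 14 fell in Ha-ras tumours (55.2%, against 13.5% over all genes). Their median change there was −0.69 (log2), against −0.04 over all genes. In Ctnnb1 tumours 2 of the 29 rose and 4 fell (20.7%, against 12% over all genes), with a median of 0.03, against −0.03. The shares over all genes include dim genes, and the share among all genes at or above that level was not taken. The 13 dimmer genes had 2 calls in each of these comparisons (15.4%), near the 12% (Ctnnb1) and 13.5% (Ha-ras) over all genes. At an unadjusted p under 0.05, 12 of the 42 genes passed in the Ctnnb1 comparison, near the 27.0% over all genes, and 20 in the Ha-ras comparison, against 25.9%. The difference between the tumour changes had 20 such genes, against 18.3% over all genes, and Ctnnb1 against Ha-ras tumours 20, against 26.4%.

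The change itself differed between the tumour types for 11 of the 42 genes, tested as an interaction in the same fit. Over all genes 5.43% passed, 2.14% with a higher and 3.29% with a lower change in Ctnnb1 tumours. Of the 42, 9 had the higher change in Ctnnb1 tumours and 2, Aldh1b1 and Akr1c18, the higher change in Ha-ras tumours. Mutation and phenobarbital go together in these samples, so their parts in this difference cannot be told apart.

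Of the 7 alcohol dehydrogenases 1 passed in each comparison of tumours with controls (14.3%), near the shares of 12% and 13.5% over all genes. Adh1, the main ethanol-oxidising enzyme of mouse liver, had values of 14.06, 14.22 and 14.37 (lowest, median and highest, log2) in Ctnnb1 tumours, against 13.98, 14.05 and 14.25 in phenobarbital controls. In Ha-ras tumours it had 13.89, 14.10 and 14.26, against 13.97, 14.00 and 14.10 in untreated controls. These ranges overlap in both comparisons, and all 16 arrays lie within 0.48 (log2) of each other. Adh5, which oxidises the glutathione adduct of formaldehyde, changed by 0.19 ± 0.12 in Ctnnb1 tumours (SE, adjusted p = 0.319) and −0.22 ± 0.14 in Ha-ras tumours (adjusted p = 0.341).

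Adh4, a liver alcohol dehydrogenase of another class that also oxidises retinol, was the gene that passed in Ha-ras tumours. It had 8.75, 9.34 and 9.63 (log2) in the Ha-ras tumours, against 11.24, 11.37 and 11.70 in the untreated controls. No tumour overlapped a control, and Adh4 fell 4.58-fold in Ha-ras tumours (log2 change −2.19 ± 0.25, SE, adjusted p = 2.26e-05). In Ctnnb1 tumours its values of 10.16, 10.76 and 11.24 lay around those of the phenobarbital controls (10.68, 10.77 and 10.80), with a change of 0.03 ± 0.21. The 2 changes differed by 2.22 ± 0.32 (adjusted p = 0.000583).

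The other 4 Adh genes on the array were dim or nearly flat. Adh6b had 4.71, 4.80 and 5.05 in Ctnnb1 tumours, against 4.97, 5.30 and 5.35 in phenobarbital controls, which overlap. It fell by 0.38 ± 0.11 (log2, adjusted p = 0.0365), with both groups below the median level of all genes. That call was lost without any 1 of Ctnnb1 tumours 2, 5, 6 and 7 and phenobarbital controls 4 and 6, with adjusted p up to 0.142. Adh7, the retinol-oxidising enzyme of the stomach, changed by 0.11 and 0.14 in the Ctnnb1 and Ha-ras comparisons on the probe set kept. On its other, dimmer probe set it rose by 0.83 ± 0.22 in Ha-ras tumours (adjusted p = 0.0286). Adh6a and the pseudogene Adh6-ps1 changed by −0.18 and −0.14 in Ctnnb1 tumours and by −0.04 and −0.58 in Ha-ras tumours, and did not pass. The 7 Adh genes lie side by side on chromosome 3, in the order Adh7, Adh1, Adh6a, Adh6b, Adh6-ps1, Adh4, Adh5 (RefSeq, GRCm38.p6), so Adh4 has neighbours that did not pass on both sides in Ha-ras tumours.

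Of the 7 aldehyde dehydrogenases of acetaldehyde and retinal, 1 passed in the Ctnnb1 comparison (14.3%), near the 12% over all genes. In the Ha-ras comparison 4 passed (57.1%), against 13.5% over all genes. Without Aldh8a1, whose assignment to this group has been revised, the counts were 1 and 3 of 6. Aldh1b1, a mitochondrial enzyme of acetaldehyde oxidation related to Aldh2, had the widest spread over the arrays among the aldehyde dehydrogenases. It had 3.99, 5.32 and 7.73 (lowest, median and highest, log2) in Ctnnb1 tumours, against 9.06, 9.28 and 9.52 in phenobarbital controls. All 7 Ctnnb1 tumours lay below all 3 controls, with Ctnnb1 tumour 3 lowest and Ctnnb1 tumour 6 highest. Aldh1b1 fell 12.2-fold in Ctnnb1 tumours (log2 change −3.61 ± 0.53, adjusted p = 0.000575). In 5 of the 7 tumours it lay below the median level of all genes, where a value may be background, so the size of the fold is uncertain. In Ha-ras tumours it had 10.67, 11.04 and 11.20, against 8.72, 9.05 and 9.17 in untreated controls, again without overlap. Aldh1b1 rose 3.97-fold there (log2 change 1.99 ± 0.63, adjusted p = 0.0473). Leaving out any 1 of the 6 arrays ended this call, at adjusted p of 0.0829 to 0.138, while the change stayed at 1.86 to 2.14. The SE draws on the spread of all groups in the fit. The SD was 1.21 in Ctnnb1 tumours, 0.27 in Ha-ras tumours and 0.24 in untreated controls. The difference between the changes was −5.60 ± 0.83 (adjusted p = 0.000648), with the same limit on its size.

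The promoter of Aldh1b1 is shown because this gene had opposite calls in the tumour types. It is the RefSeq (GRCm38.p6) sequence of the plus strand at chr4:45798772-45799071, which runs 250 bases before to 50 after the start of the gene. Neither of 2 motifs searched on both strands was found, the core of the antioxidant response element (TGACNNNGC) and the TCF/LEF motif (CTTTGAT), nor the TATA box letters (TATAAA), which were added after the data were seen.
Aldh1b1: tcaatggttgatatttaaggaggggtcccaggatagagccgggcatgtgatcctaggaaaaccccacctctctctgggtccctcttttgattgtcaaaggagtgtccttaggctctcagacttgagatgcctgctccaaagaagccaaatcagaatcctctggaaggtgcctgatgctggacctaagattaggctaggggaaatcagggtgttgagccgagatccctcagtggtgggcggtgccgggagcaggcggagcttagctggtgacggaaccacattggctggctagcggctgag

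Aldh2, the main mitochondrial acetaldehyde dehydrogenase, did not pass in either tumour type. It had 12.71, 13.32 and 13.46 in Ctnnb1 tumours, against 12.94, 13.11 and 13.21 in phenobarbital controls. In Ha-ras tumours it had 12.90, 12.99 and 13.10, against 13.26, 13.38 and 13.38 in untreated controls. The Ctnnb1 ranges overlap, while the Ha-ras tumours lay below their controls by 0.35 ± 0.16 (log2, adjusted p = 0.197). The other 4 probe sets of Aldh2 also did not pass in either comparison.

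Aldh1a1, which oxidises retinal to retinoic acid, and Aldh1a7, its close relative in rodents, fell in Ha-ras tumours. Aldh1a1 had 11.95, 12.45 and 12.73 (log2) in Ha-ras tumours, against 13.45, 13.60 and 13.66 in untreated controls. Aldh1a7 had 11.71, 11.90 and 11.91 in Ha-ras tumours, against 12.88, 12.97 and 13.19 in untreated controls. Neither gene overlapped between these groups. The falls were 2.29-fold for Aldh1a1 (log2 change −1.20 ± 0.16, adjusted p = 9.08e-05) and 2.26-fold for Aldh1a7 (−1.18 ± 0.14, adjusted p = 5.06e-05). In Ctnnb1 tumours Aldh1a1 had 13.64, 13.81 and 13.89, against 13.45, 13.75 and 13.79 in phenobarbital controls. Aldh1a7 had 12.72, 13.19 and 13.32 in Ctnnb1 tumours, against 13.19, 13.22 and 13.44 in phenobarbital controls. Both genes overlapped between these groups and did not pass, and the differences between the tumour changes were 1.32 ± 0.20 for Aldh1a1 and 1.03 ± 0.19 for Aldh1a7 (adjusted p = 0.00101 and 0.00379). The 2 genes are similar in sequence, so their probe sets may share signal.

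The other retinal dehydrogenases were dim. Aldh1a2, which makes retinoic acid in the embryo, and Aldh1a3 lay at means of 3.70 to 4.80 (log2) in the 4 groups and did not pass in the comparisons of tumours with controls. Aldh8a1, long assigned to retinal oxidation and since placed in tryptophan breakdown, fell by 0.71 ± 0.21 in Ha-ras tumours (adjusted p = 0.0386). Its Ha-ras tumours lay between 11.22 and 11.70, against 12.08 to 12.12 in untreated controls. In Ctnnb1 tumours its change was −0.49 ± 0.18 (adjusted p = 0.0929). Leaving out any array of the Ha-ras comparison other than Ha-ras tumour 3 ended the Aldh8a1 call, with adjusted p up to 0.139, and its other probe set did not pass (−0.79 ± 0.46).

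**Figure D2:**
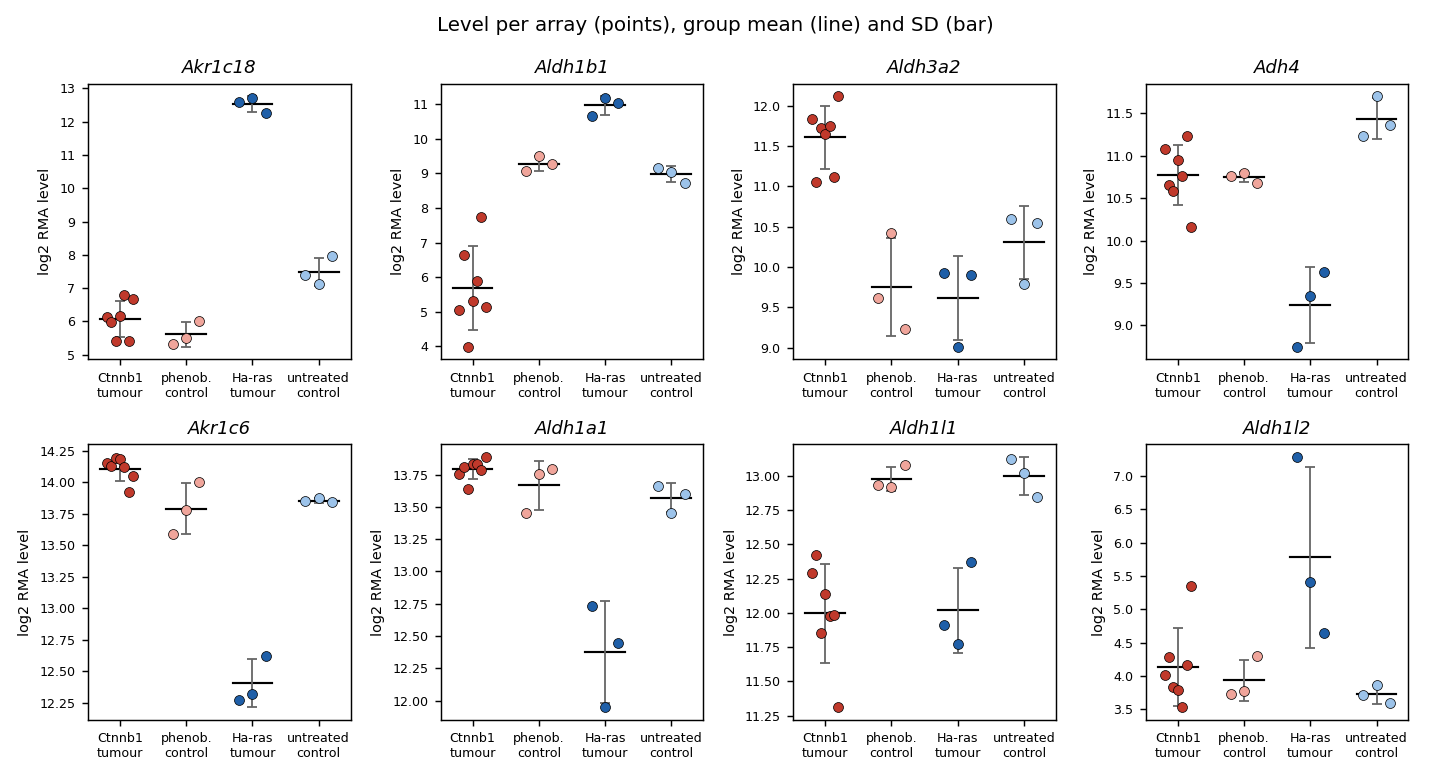
Log2 expression on every array (points) with the group mean (line) and SD (bar) for 8 of the genes, 1 panel per gene, with Ctnnb1 tumours left of phenobarbital controls and Ha-ras tumours left of untreated controls. Aldh1b1 is low in Ctnnb1 and high in Ha-ras tumours, Akr1c18 is near 12.54 in Ha-ras tumours, and Aldh3a2 is highest in Ctnnb1 tumours.

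Of the 4 Aldh3 genes, Aldh3a2 rose in Ctnnb1 tumours. Aldh3a2 is the fatty aldehyde dehydrogenase of the endoplasmic reticulum, whose loss causes Sjögren-Larsson syndrome in humans. It had 11.06, 11.73 and 12.12 (lowest, median and highest, log2) in Ctnnb1 tumours, against 9.23, 9.61 and 10.42 in phenobarbital controls. All Ctnnb1 tumours lay above all of these controls, and the rise was 3.62-fold (log2 change 1.86 ± 0.29, adjusted p = 0.00084). In Ha-ras tumours it had 9.01, 9.91 and 9.93, against 9.78, 10.55 and 10.59 in untreated controls. These overlap, the change of −0.69 ± 0.34 did not pass (adjusted p = 0.218), and the changes in the tumour types differed by 2.55 ± 0.45 (adjusted p = 0.00263). Aldh3a1, an oxidiser of aromatic aldehydes best known from the cornea, had group means of 3.25 to 3.40 and did not pass. Aldh3b1 and Aldh3b2 likewise did not pass in the comparisons of tumours with controls. A further pair of probe sets that name both Aldh3b2 and Aldh3b3 were left out of the 42 genes and did not pass.

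The formyl-tetrahydrofolate dehydrogenases, which release the formyl group of the folate carrier as carbon dioxide, passed in opposite directions in Ha-ras tumours. Aldh1l1, the cytosolic enzyme, had 11.31, 11.98 and 12.42 (log2) in Ctnnb1 tumours, against 12.92, 12.94 and 13.08 in phenobarbital controls. It had 11.78, 11.91 and 12.37 in Ha-ras tumours, against 12.85, 13.02 and 13.13 in untreated controls. Neither tumour type overlapped its controls. Aldh1l1 fell by 0.98 ± 0.19 in Ctnnb1 tumours (log2, adjusted p = 0.00353) and by 0.98 ± 0.22 in Ha-ras tumours (adjusted p = 0.0072). Its other, dimmer probe set gave −0.50 and −0.67 in these comparisons and did not pass.

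Aldh1l2, the mitochondrial enzyme, rose in Ha-ras tumours. It had 4.64, 5.41 and 7.29 (log2) in Ha-ras tumours, against 3.59, 3.71 and 3.87 in untreated controls. Tumours and controls did not overlap, and the change was 4.16-fold (2.06 ± 0.51, log2, adjusted p = 0.0133). Ha-ras tumour 1 had the highest value, and without it the change was 1.30 (adjusted p = 0.0528). In Ctnnb1 tumours Aldh1l2 had 3.53, 4.02 and 5.34, against 3.73, 3.77 and 4.29 in phenobarbital controls, with a change of 0.21 ± 0.43. The controls of both comparisons, all 7 Ctnnb1 tumours and 2 of the 3 Ha-ras tumours lay below the median level of all genes, where values may be background, so the size of the fold is uncertain.

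Of 5 aldehyde dehydrogenases of amino acid and amine breakdown 4 fell in Ha-ras tumours against untreated controls and 1, Aldh9a1, did not pass. The share that passed was 80%, against 13.5% over all genes. With Aldh8a1 counted here, as its place in tryptophan breakdown would have it, 5 of 6 fell. Aldh6a1, which oxidises methylmalonate semialdehyde in valine breakdown, had 11.51, 11.71 and 11.74 (log2) in Ha-ras tumours, against 12.39, 12.42 and 12.47 in untreated controls. These groups did not overlap, and Aldh6a1 fell by 0.77 ± 0.20 (adjusted p = 0.018). Aldh5a1, the succinic semialdehyde dehydrogenase of GABA breakdown, fell by 0.75 ± 0.17 (adjusted p = 0.00683). Aldh7a1, of lysine breakdown, fell by 0.74 ± 0.22, and Aldh4a1, of proline breakdown, by 0.67 ± 0.20 (adjusted p = 0.0319 and 0.0372). Aldh9a1, of carnitine synthesis, changed by −0.18 ± 0.12 (adjusted p = 0.388). The falls of Aldh4a1 and Aldh7a1 were lost without any 1 array of the comparison other than Ha-ras tumour 3, with adjusted p up to 0.167 and 0.127. That of Aldh6a1 was lost without Ha-ras tumour 2, untreated control 2 or untreated control 3, with adjusted p up to 0.0744.

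In Ctnnb1 tumours Aldh5a1 was the 1 gene of these 5 that passed. It had 7.65, 8.29 and 8.39 (log2), against 8.61, 8.78 and 8.85 in phenobarbital controls. The groups did not overlap, and Aldh5a1 fell by 0.56 ± 0.14 (adjusted p = 0.0193). The call was lost without phenobarbital control 4 or 5, with adjusted p up to 0.0656. For Aldh7a1, phenobarbital control 6 had 10.96, against a median of 11.99 in phenobarbital controls. The part of RNA quality in that value was not tested.

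Aldh18a1, which runs in the opposite metabolic direction as the pyrroline-carboxylate synthase of proline synthesis, rose in Ha-ras tumours. It had 5.30, 5.42 and 5.43 (log2) in Ha-ras tumours, against 4.69, 4.89 and 4.91 in untreated controls. Every tumour lay above every control, and the rise was 0.55 ± 0.17 (adjusted p = 0.0466). The call was lost without any 1 of the 6 arrays, at adjusted p of 0.0677 to 0.161. Of its other 4 probe sets 3 also rose, by 0.79 to 2.34, although from levels below the median of all genes. The probe set kept lay below that median on every array of both groups too, where a value may be background. In Ctnnb1 tumours the change was −0.20 ± 0.15 (adjusted p = 0.43).

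Aldh16a1, a member without a clear enzyme activity, had 8.31, 8.44 and 8.46 (log2) in Ha-ras tumours, against 9.05, 9.08 and 9.15 in untreated controls. Every tumour lay below every control, and it fell by 0.69 ± 0.14 (adjusted p = 0.00373). Its other probe set fell by 1.08 ± 0.18 (adjusted p = 0.000986). In Ctnnb1 tumours the change of the probe set kept was −0.12 ± 0.12 (adjusted p = 0.573).

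The 9 genes of the Akr1c group, with Akr1cl counted among them, had 2 calls in Ctnnb1 tumours, both upward. They had 4 in Ha-ras tumours, 1 upward and 3 downward. These shares were 22.2% and 44.4%, against 12% and 13.5% over all genes. Akr1c18 is the steroid dehydrogenase that inactivates progesterone in the mouse. It had 12.28, 12.61 and 12.73 (log2) in Ha-ras tumours, against 7.13, 7.39 and 7.95 in untreated controls. All 3 Ha-ras tumours lay more than 4 log2 units above all untreated controls. Akr1c18 rose 33.0-fold in Ha-ras tumours (log2 change 5.04 ± 0.33, adjusted p = 1.07e-07). In Ctnnb1 tumours it had 5.41, 6.13 and 6.79, against 5.31, 5.50 and 6.01 in phenobarbital controls. These ranges overlap, the change of 0.48 ± 0.28 did not pass (adjusted p = 0.3), and the changes in the tumour types differed by −4.57 ± 0.44 (adjusted p = 1.38e-05). Of the Ctnnb1 comparison 5 of the 7 tumours and all 3 controls lay below the median level of all genes.

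Akr1c6 and Akr1c19 fell in Ha-ras tumours. Akr1c6, a steroid dehydrogenase of mouse liver that acts on oestrogens and androgens, had 12.27, 12.32 and 12.62 (log2) in Ha-ras tumours, against 13.84, 13.85 and 13.88 in untreated controls. Akr1c19 had 8.61, 9.27 and 10.03 in Ha-ras tumours, against 10.47, 10.89 and 11.24 in untreated controls. Neither gene overlapped between the groups. The falls were 2.74-fold for Akr1c6 (log2 change −1.45 ± 0.12, adjusted p = 1.26e-06) and 2.95-fold for Akr1c19 (−1.56 ± 0.29, adjusted p = 0.00183). Akr1c14, a hydroxysteroid dehydrogenase, had 10.87, 10.93 and 11.75 in Ha-ras tumours, against 11.85, 12.04 and 12.05 in untreated controls. It fell by 0.79 ± 0.25 (adjusted p = 0.0464), and the call held without Ha-ras tumour 1 but not without any other 1 array, with adjusted p up to 0.179.

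In Ctnnb1 tumours Akr1c20 and Akr1c21 rose. Akr1c20 had 11.73, 12.14 and 12.31 (lowest, median and highest, log2) in Ctnnb1 tumours, against 11.12, 11.13 and 11.48 in phenobarbital controls. The groups did not overlap, and the rise was 1.72-fold (log2 change 0.78 ± 0.14, adjusted p = 0.00236). Its other probe set gave a like change of 0.77 ± 0.35, which did not pass (adjusted p = 0.195). Akr1c21, a steroid dehydrogenase best known from mouse kidney, had 4.85, 5.14 and 5.35 in Ctnnb1 tumours, against 4.12, 4.60 and 4.88 in phenobarbital controls. These overlap and lie below the median level of all genes, and the rise was 0.55 ± 0.16 (adjusted p = 0.0393). It was lost without any 1 of Ctnnb1 tumours 1 to 4 or phenobarbital controls 4 and 5, with adjusted p up to 0.205.

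Akr1c6 and Akr1c14 were close to the threshold in Ctnnb1 tumours. Akr1c6 had 13.92, 14.13 and 14.20 in Ctnnb1 tumours, against 13.59, 13.78 and 14.00 in phenobarbital controls, a change of 0.32 ± 0.10 (adjusted p = 0.0542). Akr1c14 had 11.67, 12.15 and 12.37, against 11.09, 11.41 and 11.81, a change of 0.63 ± 0.21 (adjusted p = 0.0628). Both overlapped between the groups. Akr1c12, Akr1c13 and Akr1cl did not pass in the comparisons of tumours with controls, with changes of −0.20 to 0.14.

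Tested directly, the changes differed between the tumour types for 6 of the 9 genes of the Akr1c group (66.7%), against 5.43% over all genes. The differences were 1.77 ± 0.16 for Akr1c6, 1.68 ± 0.38 for Akr1c19, 1.43 ± 0.33 for Akr1c14, 1.09 ± 0.25 for Akr1c21 and 0.98 ± 0.22 for Akr1c20 (log2, adjusted p = 6.34e-06 to 0.0181). These 5 had the higher change in Ctnnb1 tumours, and Akr1c18 the higher change in Ha-ras tumours. The difference was lost for Akr1c14 without Ha-ras tumour 2 (adjusted p = 0.0543), for Akr1c19 without untreated control 1 (0.0573) and for Akr1c21 without untreated control 2 (0.0569).

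Most of these genes are neighbours, while Akr1cl lies on chromosome 1. Akr1e1, at the end of the order below, was not counted in the group. On chromosome 13 the order is Akr1c14, Akr1c18, Akr1c13, Akr1c19, Akr1c12, Akr1c6, Akr1c20, Akr1c21, Akr1e1 (RefSeq, GRCm38.p6). Akr1c18, with the largest rise in Ha-ras tumours, thus lies between Akr1c14, which fell, and Akr1c13, which changed by 0.05 ± 0.24. Members of this group are similar in sequence, so a probe set may also read a neighbour, and a probe set that names both Akr1c12 and Akr1c13 was left out.

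**Figure D3:**
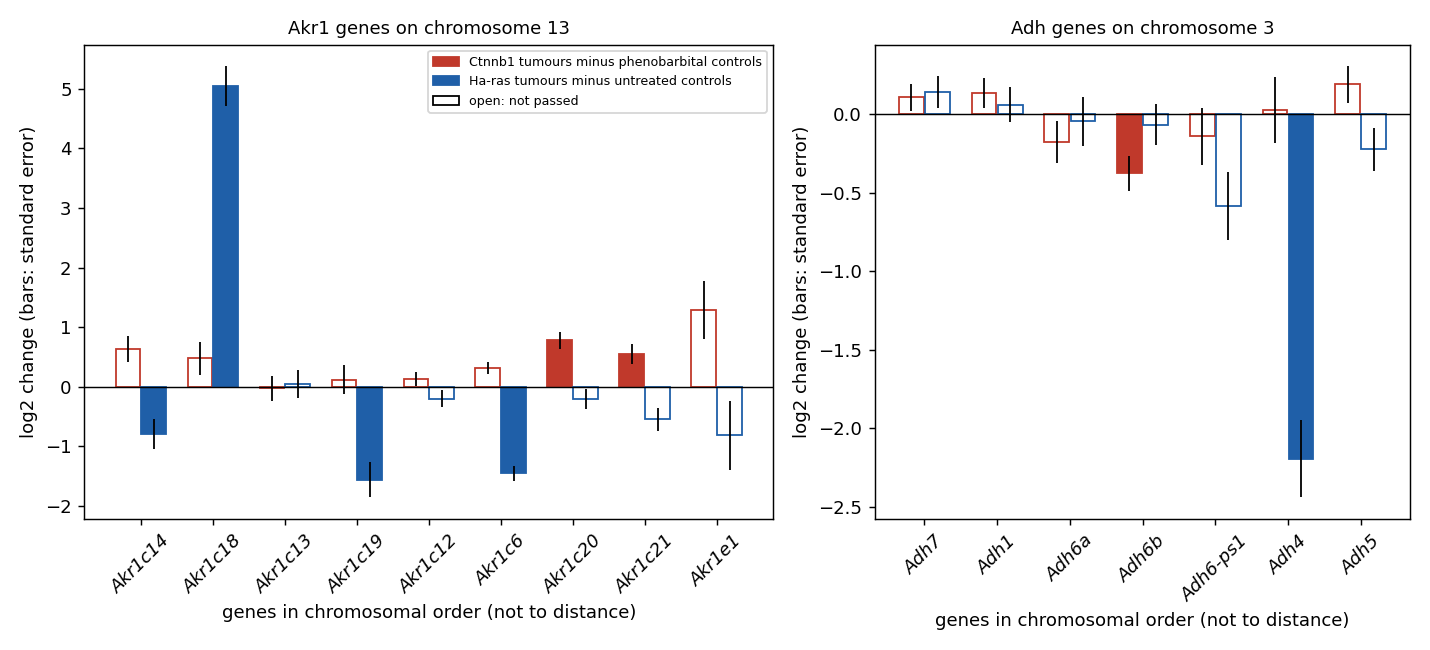
Log2 change (bars, vertical axis) with its standard error of the genes in their order along the Akr cluster of chromosome 13 and the Adh cluster of chromosome 3 (horizontal axis, evenly spaced, filled where a gene passed), for Ctnnb1 tumours against phenobarbital controls and Ha-ras tumours against untreated controls. Akr1c18 at 5.04 stands between neighbours at −0.79 and 0.05 in Ha-ras tumours, and Adh4 at −2.19 stands between neighbours at −0.58 and −0.22.

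The promoters of Akr1c18, Akr1c19 and Akr1c6 are shown because these genes of the same cluster, though not adjacent, moved in opposite directions in Ha-ras tumours. They are RefSeq sequences (GRCm38.p6) from 250 bases before to 50 after the start, at chr13:4150597-4150896 on the minus strand, chr13:4233490-4233789 on the plus strand and chr13:4434093-4434392 on the plus strand. Capitals mark the antioxidant response element core (TGACNNNGC, read on the opposite strand) in Akr1c19 and the TATA box letters (TATAAA) in Akr1c6. The window of Akr1c18 held none of the 3 motifs.
Akr1c18: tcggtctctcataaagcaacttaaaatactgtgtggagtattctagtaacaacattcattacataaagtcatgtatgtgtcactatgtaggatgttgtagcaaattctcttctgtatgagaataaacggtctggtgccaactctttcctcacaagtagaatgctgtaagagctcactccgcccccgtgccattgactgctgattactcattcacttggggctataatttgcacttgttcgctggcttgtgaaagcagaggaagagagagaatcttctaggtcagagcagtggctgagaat
Akr1c19: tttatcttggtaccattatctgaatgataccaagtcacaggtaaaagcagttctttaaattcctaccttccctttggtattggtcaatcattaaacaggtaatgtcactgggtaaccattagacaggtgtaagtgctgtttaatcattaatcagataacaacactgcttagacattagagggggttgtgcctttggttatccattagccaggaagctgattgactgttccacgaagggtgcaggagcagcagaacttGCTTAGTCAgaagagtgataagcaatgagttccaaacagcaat
Akr1c6: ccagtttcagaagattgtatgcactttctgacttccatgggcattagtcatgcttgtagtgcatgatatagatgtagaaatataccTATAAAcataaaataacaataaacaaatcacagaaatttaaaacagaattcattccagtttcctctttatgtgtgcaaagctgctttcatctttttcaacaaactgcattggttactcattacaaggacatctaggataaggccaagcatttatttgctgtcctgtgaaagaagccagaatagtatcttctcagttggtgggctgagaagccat

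Of the 42 genes 33 had a promoter in the table, 36 promoters in all. The antioxidant response element core was in promoters of 5 of the 33 genes (Adh6a, Akr1c19, Akr1cl, Aldh1a2 and Aldh9a1), against 12.4% of all 32851 promoters of the same length. The TCF/LEF motif was in that of Aldh16a1 alone, against 3.73% of all promoters, and TATAAA in promoters of 6 of the 33 genes, against 13.6%. The counts are per gene and the shares per promoter, and for each motif they lie close together. Both strands were read. Adh6a held 2 of the motifs, the antioxidant response element core from base −235 and TATAAA from base −31 relative to the start, so no matches overlapped. These matches are letters in a window and show no binding.

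Akr1d1, the steroid beta-reductase of bile acid synthesis and steroid hormone clearance, had 8.39, 8.65 and 9.17 (log2) in Ha-ras tumours, against 9.56, 9.81 and 10.15 in untreated controls. Tumours and controls did not overlap, and Akr1d1 fell 2.15-fold (log2 change −1.10 ± 0.32, adjusted p = 0.0283). The call was lost without any 1 of Ha-ras tumours 2 and 3 and untreated controls 1 and 2, with adjusted p up to 0.111. Its other probe set also fell, by 1.22 ± 0.34 (adjusted p = 0.0352). In Ctnnb1 tumours it had 9.05, 9.53 and 10.46, against 9.17, 9.46 and 9.88 in phenobarbital controls, with a change of 0.18 ± 0.27. For the other probe set the changes in the tumour types differed by 1.71 ± 0.45 (adjusted p = 0.0482), and for the probe set kept by 1.29 ± 0.41 (adjusted p = 0.0889).

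Among the other aldo-keto reductases Akr7a5, which reduces succinic semialdehyde and the dialdehyde of aflatoxin, fell in Ctnnb1 tumours. It had 11.27, 11.58 and 11.67 (log2) in Ctnnb1 tumours, against 11.73, 11.93 and 12.51 in phenobarbital controls. The groups did not overlap, and the fall was 0.55 ± 0.14 (adjusted p = 0.0201). Phenobarbital control 6, which has the large Gapdh gap, had the value of 12.51, and without it the change was −0.32 (adjusted p = 0.129).

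Akr1a1, the aldehyde reductase that mice use in making ascorbate, had changes of 0.01 ± 0.08 in Ctnnb1 and −0.17 ± 0.10 in Ha-ras tumours and did not pass. Of its other 3 probe sets 2 fell in Ha-ras tumours, by 0.42 ± 0.11 and 0.46 ± 0.11 (adjusted p = 0.0241 and 0.0129). Akr1e1, a reductase of anhydrofructose, spread widely. It had 4.90, 6.11 and 8.30 in Ha-ras tumours, against 7.17, 7.28 and 7.30 in untreated controls, so that 2 of the tumours lay below and 1 above all controls. In Ctnnb1 tumours it had 7.13, 7.99 and 8.51, against 6.33, 6.41 and 7.21 in phenobarbital controls, a change of 1.29 ± 0.49 (adjusted p = 0.101). This SE draws on all groups, with an SD of 1.73 in Ha-ras tumours and 0.48 in each group of the Ctnnb1 comparison. Akr1b8 and Akr1b10, relatives of aldose reductase, changed by −0.41 to 0.37 and did not pass.

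**Figure D4:**
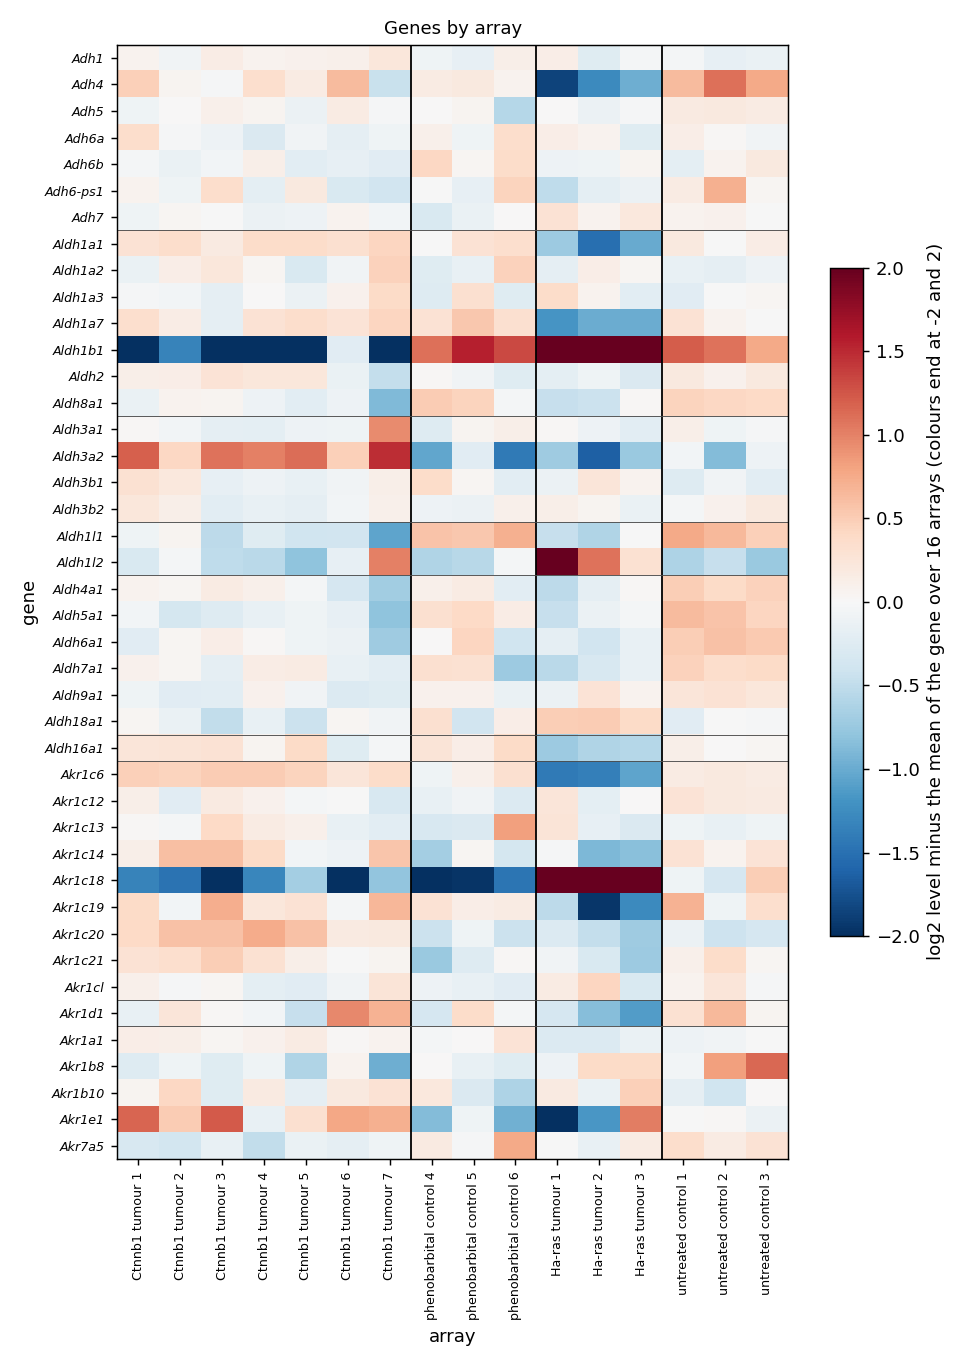
Deviation of each of the 42 genes from its own mean over the 16 arrays (log2, colour), with arrays in columns by group and genes in rows by family, and colours ending at −2 and 2. Akr1c18 stands out in the 3 Ha-ras tumours and Aldh1b1 in the 7 Ctnnb1 tumours, where it is low.

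Set against each other directly, 12 of the 42 genes were higher and 4 lower in Ctnnb1 than in Ha-ras tumours. Over all genes 15.1% passed, 7.21% higher and 7.90% lower. The lower genes differed by −6.45 ± 0.28 (Akr1c18), −5.29 ± 0.53 (Aldh1b1), −1.64 ± 0.43 (Aldh1l2) and −0.64 ± 0.15 (Aldh18a1, log2, adjusted p = 5.92e-10 to 0.0164). For all of these, 5 to 7 of the 7 Ctnnb1 tumours lay below the median level of all genes, so the sizes are uncertain. For Aldh18a1 all 3 Ha-ras tumours lay below it as well, and for Aldh1l2 2 of the 3. Higher were Aldh3a2, by 1.99 ± 0.29, Akr1c6, by 1.71 ± 0.10, Akr1c19, by 1.56 ± 0.25, Adh4, by 1.53 ± 0.21, Aldh1a1, by 1.42 ± 0.13, and Aldh1a7, by 1.29 ± 0.12, with adjusted p of 0.000368 or less. The other higher genes were Akr1c20, Akr1d1, Akr1c14, Aldh16a1, Akr1c21 and Akr1a1, by 0.32 to 0.95. Without Ha-ras tumour 1 the difference of Aldh1l2 was −0.89 (adjusted p = 0.144). Akr1c14, Akr1c21 and Akr1d1 were lost without Ha-ras tumour 2 or 3 (adjusted p up to 0.143) and Akr1a1 without Ha-ras tumour 1 or 2 (up to 0.0838). Treatment and mutation cannot be told apart here, and the arrays are those of the comparisons above.

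Between the non-tumour livers 1 of the 42 genes passed, Akr1c18. Over all genes 0.214% passed, 0.132% upward and 0.0824% downward. Akr1c18 had 5.31, 5.50 and 6.01 (log2) in phenobarbital controls, against 7.13, 7.39 and 7.95 in untreated controls. The groups did not overlap, and Akr1c18 fell 3.69-fold (log2 change −1.88 ± 0.33, adjusted p = 0.0315). All 3 phenobarbital controls lay below the median level of all genes, where a value may be background, so the size of the fold is uncertain. The call was lost without any 1 of the 6 arrays, at adjusted p of 0.0581 to 0.131 and changes of −2.09 to −1.65, and with these arrays fitted alone (0.0793). At an unadjusted p under 0.05, 8 of the 42 genes were lower and 0 higher in phenobarbital controls, against 6.40% lower and 7.23% higher (13.6% in all) over all genes. Aldh1a7 and Aldh1a1 had means of 13.28 and 13.67 in phenobarbital controls, against 13.02 and 13.57 in untreated controls, and did not pass.

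Of 24 other enzymes of alcohols and carbonyls listed 21 were measured, and in Ha-ras tumours 8 fell and 1 rose, against 13.5% called over all genes. Aox3 and Aox1, aldehyde oxidases, fell by 3.04 ± 0.41 and 1.47 ± 0.24 (log2, adjusted p = 0.000123 and 0.00057). Cyp2e1, the ethanol-inducible cytochrome of central hepatocytes, fell by 1.41 ± 0.23 (adjusted p = 0.00059), and is also 1 of the pericentral markers given below. Ptgr1, a reductase of prostaglandins and alkenals, rose by 2.41 ± 0.42 (adjusted p = 0.000958). In Ctnnb1 tumours 3 of the 21 passed (14.3%), near the 12% over all genes. Here 1 rose, Aox1 by 1.05 ± 0.20, and 2 fell, Dcxr by 0.88 ± 0.21 and Hsd17b6 by 2.20 ± 0.58 (adjusted p = 0.00359, 0.0135 and 0.0221). The median change of the 21 was −0.30 in Ha-ras and 0.10 in Ctnnb1 tumours.

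Of 13 measured genes of retinoid handling 3 passed in each tumour comparison (23.1%), against 12% of all genes in the Ctnnb1 and 13.5% in the Ha-ras comparison. Lrat, which stores retinol as ester, fell by 2.13 ± 0.31 in Ctnnb1 and by 2.13 ± 0.37 in Ha-ras tumours (adjusted p = 0.000529 and 0.000947). Cyp26b1, which breaks down retinoic acid, fell in both as well (adjusted p = 0.0178 and 0.0149), by 1.17 ± 0.30 in Ha-ras tumours. Dhrs3, a retinal reductase, fell by 0.59 ± 0.14 in Ctnnb1 tumours (adjusted p = 0.0102), and Bco1, which cleaves carotene to retinal, rose by 2.23 ± 0.31 in Ha-ras tumours (adjusted p = 0.00015). Lrat is also a marker of stellate cells. Of 8 stellate cell and fibroblast markers 4 fell in Ctnnb1 and 3 in Ha-ras tumours, with mean levels per array of 7.33 to 8.18 in Ctnnb1 tumours, against 8.30 to 8.73 in phenobarbital controls. They were 7.53 to 8.20 in Ha-ras tumours, against 8.45 to 8.50 in untreated controls, and their part in these results was not tested.

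Target genes of the factors that act on these families were set beside them. NRF2 is a transcription factor of the response to oxidative stress and drives several aldo-keto reductases. Of its 14 measured targets 6 rose in Ctnnb1 tumours, among them Srxn1 by 2.11 ± 0.45 and Nqo1 by 1.96 ± 0.52 (adjusted p = 0.00719 and 0.0238). In Ha-ras tumours 2 rose, Ptgr1 and Osgin1, and 2 fell, Gsta2 and Gclm. The shares called were 42.9% in the Ctnnb1 and 28.6% in the Ha-ras comparison, against 12% and 13.5% over all genes. Ptgr1 is the same call as among the carbonyl enzymes above. The median change of the 14 was 0.77 in Ctnnb1 and 0.27 in Ha-ras tumours, against −0.03 and −0.04 over all genes. Of 9 measured targets of CAR and PXR 3 rose in phenobarbital controls against untreated controls, where 0.132% of all genes rose. Cyp2b10 rose by 5.08 ± 0.51, Cyp2c55 by 3.90 ± 0.36 and Gstm3 by 1.88 ± 0.33 (log2, adjusted p = 0.000352, 0.000241 and 0.0315). Of the same 9 targets 1 rose in Ctnnb1 tumours (11.1%), near the 12% over all genes. In Ha-ras tumours 2 of them rose and 1 fell (33.3%), against 13.5% over all genes. Of 6 targets of the aryl hydrocarbon receptor Nqo1 rose in Ctnnb1 tumours and Cyp1a2 fell by 2.62 ± 0.39 in Ha-ras tumours (adjusted p = 0.000305). These are 16.7% in each comparison, near the 12% and 13.5% over all genes. Nqo1 is the call already counted for NRF2, and Cyp1a2 is also a pericentral marker given below.

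Markers of position in the lobule were measured on the same arrays, and 12% of all genes passed in the Ctnnb1 and 13.5% in the Ha-ras comparison. Of 8 markers of pericentral hepatocytes 2 rose in Ctnnb1 and 4 fell in Ha-ras tumours. Their mean level per array was 10.97 to 13.31 (log2) in Ctnnb1 tumours, against 10.79 to 12.12 in phenobarbital controls, which overlap. It was 9.39 to 10.00 in Ha-ras tumours, against 11.23 to 11.64 in untreated controls, without overlap. Of 7 markers of periportal hepatocytes 6 fell in Ctnnb1 and 1 (14.3%) in Ha-ras tumours. Their mean was 8.12 to 10.22 in Ctnnb1 tumours, against 12.02 to 12.85 in phenobarbital controls, and 10.67 to 11.79 in Ha-ras tumours, against 12.29 to 12.58 in untreated controls. Of 7 markers of Kupffer cells 2 fell in Ctnnb1 and 5 in Ha-ras tumours, with means of 7.43 to 8.64 in Ctnnb1 tumours, against 8.62 to 9.46 in phenobarbital controls. They were 6.14 to 8.42 in Ha-ras tumours, against 8.58 to 9.13 in untreated controls. Hepatocyte markers, 7 in all, had 2 falls (28.6%) in Ctnnb1 and 0 in Ha-ras tumours. Their mean was 13.72 to 14.08 in Ctnnb1 tumours, against 14.01 to 14.31 in phenobarbital controls, which overlap. Among 5 cholangiocyte markers 1 fell (20%) in Ctnnb1 and 0 in Ha-ras tumours. The part of these values in the results above was not tested.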

How the data were processed

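Affymetrix arrays read the RNA of 16 liver samples. Per the submitters' processing notes the authors made the deposited log2 values with RMA in R 2.14.1, which corrects background, normalizes quantiles between arrays and sums probes into probe sets. No detection calls were used, so low values may be background, and the number of arrays limits the precision. Probe sets were named from the platform annotation, checked by Entrez identifier against RefSeq GRCm38.p6, and the probe set of highest mean over all arrays was kept per gene. Of 45101 probe sets 34945 had 1 symbol, 932 had several, 9160 had none and 64 were array controls. The 18193 genes were tested with limma 3.58.1 in R 4.3.3 (1 coefficient per group over all 16 arrays, eBayes), in 5 comparisons, with Benjamini-Hochberg adjustment over all genes and a threshold of 0.05. A change is a difference of log2 group means with its SE. The fit was tested on simulated data. The 42 genes have 71 probe sets, and 25 of the genes have 1. Every gene of the set may be named. The rule for per-array values was at most 12 passing genes a comparison in order of fold change, and genes whose other probe sets go the other way. Where probe sets disagreed in sign neither direction passed, and of those genes Aldh2 is given per array and the others only in part. Outside the rule, and chosen after values were seen, are the values of Aldh8a1, Aldh16a1, Aldh18a1, Adh1, Akr1e1 and 1 array of Aldh7a1, and those of genes given in one tumour comparison and repeated for the other. Genes of other lists are named where they pass, at most 4 a list and comparison. The genes, gene lists and tests were chosen with earlier results of these data known. Motifs were searched in RefSeq promoters on both strands.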

Additional observations from a re-analysis of the deposited data

Results flagged for a closer look

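Among the 7 Ctnnb1 tumours 6 of the 42 genes had 1 tumour far from the others, judged by the gap to the nearest tumour divided by the range of the group. Chance alone gives about 1 in 20 genes, and 8.25% of all 18193 genes had such a tumour. Of those 1501 genes 631 had it in Ctnnb1 tumour 7, against 80 to 191 in each other Ctnnb1 tumour, so that array stood apart across the genes, and its genes are not independent. The gap as a share of the range was 0.811 for Aldh3a1, 0.718 for Aldh8a1, 0.604 for Aldh5a1, 0.583 for Aldh1l2 and 0.582 for Aldh6a1, all in Ctnnb1 tumour 7, and 0.582 for Adh6a in Ctnnb1 tumour 1. In Ctnnb1 tumour 7 Aldh3a1 had 4.30 (nearest tumour 3.37, log2) and Aldh1l2 had 5.34 (nearest 4.29), above the other tumours. Aldh8a1 had 10.80 there (nearest 11.48), Aldh5a1 had 7.65 (nearest 8.10) and Aldh6a1 had 11.18 (nearest 11.67), below the other tumours.

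For 11 of the 42 genes the change in Ctnnb1 tumours differed from the change in Ha-ras tumours by the interaction test in limma. That is 26.2%, against 5.43% over all genes. The differences (log2, Ctnnb1 change minus Ha-ras change) were −5.60 for Aldh1b1, −4.57 for Akr1c18, 2.55 for Aldh3a2, 2.22 for Adh4, 1.77 for Akr1c6, 1.68 for Akr1c19, 1.43 for Akr1c14, 1.32 for Aldh1a1, 1.09 for Akr1c21, 1.03 for Aldh1a7 and 0.98 for Akr1c20. Phenobarbital goes with the Ctnnb1 arm, so its part cannot be told apart from that of the mutation.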

How the results depend on the processing

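With the probe set of highest variance, the mean of all probe sets, quantile normalization, median centring, eBayes with trend and robust, dim genes left out, or the replicate number as a random block, the counts of called genes stayed within 7 to 9 for the Ctnnb1 comparison (8 as reported), 16 to 18 for the Ha-ras comparison (18), 10 to 14 for the difference between the tumour changes (11), 14 to 17 for Ctnnb1 against Ha-ras tumours (16) and 1 for the controls (1); the random block was run for the first 3. With only the groups compared they were 6, 16 and 16 for the Ctnnb1, Ha-ras and tumour comparisons, and the comparison of controls had 0 calls in place of 1. With the replicate number as a fixed block, the Ctnnb1 comparison had 4 calls, the Ha-ras comparison 17 and the difference 9. Deviations from the group means of tumour and control with equal numbers correlated over genes at 0.13, 0.09 and −0.12 (Ctnnb1) and 0.03, 0.40 and 0.24 (Ha-ras), and not every sample correlated best with its own number, so the numbers were not taken as pairs. On the other probe sets of called genes 14 changes stayed past the threshold and 11 did not. No called change of the 42 genes turned its sign in any of these, and the genes of other lists were not run. With 1 array left out in turn the counts ranged from 5 to 9 (Ctnnb1), 10 to 15 (Ha-ras), 10 to 13 (difference), 0 to 0 (controls) and 12 to 17 (tumours). Calls that held in every such run were 4 of 8, 9 of 18, 8 of 11, 0 of 1 and 11 of 16. Leaving out phenobarbital control 6 and Ctnnb1 tumours 6 and 7 together, an alternative added after the data were seen, gave 8, 13, 1 and 18 calls for the Ctnnb1 comparison, the difference, the controls and the tumours. For the controls 8 of the 42 genes had an unadjusted p under 0.05 in the fit as reported, against 13.6% of all genes. The cause of these shifts was not tested. Signal limits the dim genes, which have no detection call.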
